A study of Mus musculus with 4 samples.

Results

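The genes described here encode 10 enzymes of the glutathione and thioredoxin systems and of the first line of antioxidant defence: Gsr, Gclc, Gclm, Txnrd1, Hmox1, Nqo1, Srxn1, Prdx1, Sod1 and Sod2. They were followed in activated mouse mast cells through every probe set whose only gene symbol in the platform annotation was one of these names. That gave 19 of 22626 probe sets, for 9 of the 10 genes. Prdx1 has no value here, because its 5 probe sets all carry a second symbol as well. A probe set is a group of short oligonucleotides that reads a transcript, and several of these genes have more than 1.

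The series holds 4 arrays of bone marrow-derived mast cells, 2 of wild-type (Pac1+/+) and 2 of Pac1-/- cultures. Pac1 is the MAP kinase phosphatase encoded by Dusp2, and marrow came from mice aged 8 to 12 weeks. At the end nearly all cells carried Kit and the IgE receptor, per the labels. All 4 cultures were kept in 5 ng/ml interleukin-3 for 4 to 6 weeks, sensitised with IgE against dinitrophenyl at 100 ng/ml for 18 h, and stimulated with the antigen DNP-HSA at 20 ng/ml for 2 h. There is no unstimulated culture, so every value belongs to activated cells. The medium contained beta-mercaptoethanol, a thiol reductant, in both genotypes. The question was which transcripts differ when Pac1 is missing.

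Glutathione is a small thiol that cells use to reduce peroxides. It is made in a first step by glutamate-cysteine ligase, of which Gclc encodes the catalytic and Gclm the modifier subunit, and its oxidised form is reduced again by glutathione reductase, Gsr. Thioredoxin is a second, parallel carrier of reducing power, recharged by thioredoxin reductase, Txnrd1. Many of these genes are known targets of the transcription factor NRF2, encoded by Nfe2l2, which binds antioxidant response elements when cells meet oxidants or electrophiles.

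Intensities were quantile normalised, so that the 4 arrays share 1 distribution, and are in arbitrary units. Values below 16 were raised to 16 before log2 was taken, and probe sets with a mean of at least 100 were tested with limma, 7770 in all. The deposited table gives no detection calls, so a low reading is not known to lie above background. One array stood apart: on Pac1-/- replicate 2, the median deposited intensity was 24.5, against 40.6 to 49.3 on the other three. The 3' to 5' signal ratio of the GAPDH control was 191 there and between 0.798 and 1.36 elsewhere. That of the beta-actin control was low only on wild-type replicate 2, at 1.58. It was 109 on wild-type replicate 1, 293 on Pac1-/- replicate 1 and 54.8 on Pac1-/- replicate 2. Mast cell identity was checked on 8 markers, and 7 of them read at least 100 on every array. The exception was Ms4a2, the beta chain of the IgE receptor, at 41.9 on Pac1-/- replicate 1. The mast cell tryptase gene Tpsb2 read 476 on Pac1-/- replicate 2 and 5838, 6588 and 7259 on the others. The single Dusp2 probe set read 167 and 90.7 in wild-type and 109 and 75.5 in Pac1-/- cells, so the genotypes overlapped. No source used here places its probes relative to the deletion, which leaves the labels unchecked by this probe set.

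Probe sets differ in how well they bind, so intensities are compared between arrays and not between genes. Of the 19 probe sets, 16 passed the minimum, and 9 of these, for 6 genes, read at least 100 on all 4 arrays. Gclm, Hmox1, both Gsr probe sets, 1 of Gclc and 2 of the 4 for Srxn1 read below 100 on some arrays, as the plot of levels by array shows. The other 3, 2 of Txnrd1 and 1 of Sod2, averaged below the minimum and have levels only.

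**Figure D1:**
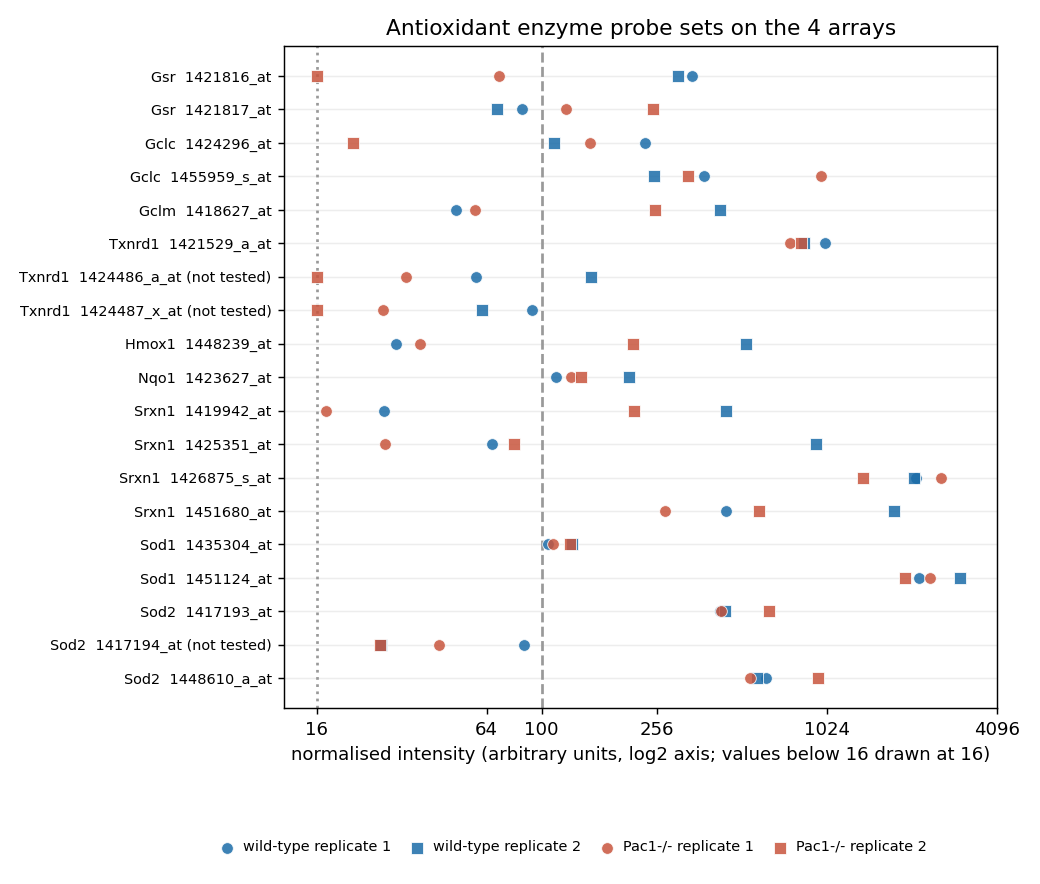
Normalised intensity (arbitrary units, log2 axis) of the 19 probe sets of 9 antioxidant enzyme genes, with 1 point per array: wild-type in blue, Pac1-/- in red, circles for replicate 1 and squares for replicate 2. The dotted line is the floor of 16 and the dashed line marks 100; for Gclm and Hmox1 both squares lie right of both circles, and for the first Gsr probe set both red points lie left of both blue ones.

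Glutathione reductase, which returns oxidised glutathione to its reduced form, had 2 probe sets that read in opposite directions. For Gsr, probe set 1421816_at read 341 and 303 in wild-type replicates 1 and 2 and 70.6 and 11.05 in Pac1-/- replicates 1 and 2. Both Pac1-/- arrays were thus below both wild-type arrays. Its mean of 181 reached the intensity minimum only through the wild-type arrays, so its p-value and lack of overlap are not independent of that filter. The log2 level was 8.33 ± 0.12 in wild-type and 5.07 ± 1.51 in Pac1-/- cells (SD, n = 2). Subtracting wild-type from Pac1-/- gave a log2 difference of -3.26 ± 0.86 (SE; 95% confidence interval -5.72 to -0.79), with a limma p of 0.0221 before and 0.866 after Benjamini-Hochberg adjustment. The pair of replicate 1 arrays gave -2.27 and the replicate 2 pair -4.24. Because Pac1-/- replicate 2 lay under the floor, the size depends on it, and with a floor of 64 the difference was -2.26. The unadjusted p was above 0.05 without wild-type replicate 1 (0.0916), without wild-type replicate 2 (0.0821) and with no intensity minimum (0.0582).

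The second Gsr probe set, 1421817_at, was dimmer. It read 85.1 and 69.4 in wild-type and 122 and 247 in Pac1-/- cells, so here both Pac1-/- arrays were above both wild-type arrays. This probe set passed the intensity minimum only through the Pac1-/- arrays. Its log2 difference was 1.18 ± 0.52 (SE; -0.31 to 2.66; limma adjusted p = 0.866). Both probe sets were widest apart between the genotypes on the replicate 2 arrays, and they give no common direction for Gsr. The part of the transcript that each one reads was not looked up.

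Glutamate-cysteine ligase sets the pace of glutathione synthesis, and its catalytic subunit showed the same kind of disagreement. For Gclc, probe set 1455959_s_at, whose suffix marks probes shared by several transcripts, read 375 and 249 in wild-type and 970.1 and 329 in Pac1-/- cells. Only Pac1-/- replicate 1 stood clear of the rest, and the genotypes overlapped. The log2 difference was 0.89 ± 0.70 (SE; -1.13 to 2.90; limma adjusted p = 0.866), and it was 0.10 without Pac1-/- replicate 1 and 1.67 without Pac1-/- replicate 2. The other probe set, 1424296_at, read 232 and 111 in wild-type and 149 and 21.5 in Pac1-/- cells, again with overlap, and its log2 difference was -1.50 ± 1.15 (-4.79 to 1.79; adjusted p = 0.866). Without Pac1-/- replicate 2, the one array on which it read below 100, that difference was -0.11. What both Gclc probe sets shared was a lower reading on the replicate 2 arrays within each genotype.

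The modifier subunit Gclm, which raises the efficiency of the ligase, separated the replicate numbers and not the genotypes. It read 49.8 in wild-type and 58.0 in Pac1-/- replicate 1, but 429 in wild-type and 251 in Pac1-/- replicate 2. Replicate 2 was 8.63-fold above replicate 1 in wild-type and 4.34-fold above it in Pac1-/- cells. The genotype difference was -0.28 ± 1.42 (log2, SE; -4.35 to 3.80; limma adjusted p = 0.991), at 0.22 in the replicate 1 pair and -0.77 in the replicate 2 pair. Its interval spans changes of more than 4-fold in either direction.

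Thioredoxin reductase 1, a selenoenzyme of the cytosol, was read evenly by its bright probe set. For Txnrd1, 1421529_a_at read 1007 and 849 in wild-type and 759 and 830.3 in Pac1-/- cells. All 4 arrays lay close together, with both Pac1-/- arrays just below the wild-type ones. The log2 difference was -0.22 ± 0.36 (SE, interval -1.24 to 0.80, limma adjusted p = 0.926). It was 0.52 under median centring, which scales the intensities of each array to a common median. The dim probe sets were further apart. Probe set 1424486_a_at read 58.7 and 149.8 in wild-type and 33.3 and 8.43 in Pac1-/- cells, and 1424487_x_at, whose suffix warns of cross-hybridisation, read 92.7 and 61.8 against 27.5 and 2.30. In both, each Pac1-/- array was below each wild-type array, and Pac1-/- replicate 2 was under the floor. Their log2 differences were -2.02 and -1.85, but -0.61 and -0.27 with a floor of 64, so the distance of these dim probe sets is set largely by that choice. They averaged below the intensity minimum and have no test here. With no minimum their unadjusted limma p-values were 0.0973 and 0.0358 (adjusted p = 0.753 and 0.587). In that setting 1762 of all 22626 probe sets were under 0.05.

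Sulfiredoxin, Srxn1, reduces peroxiredoxins that have been over-oxidised by peroxide, and 3 of its 4 probe sets were higher on the replicate 2 arrays. Probe set 1451680_at read 448 and 1758 in wild-type and 274 and 587 in Pac1-/- cells, above 100 throughout. Within each genotype replicate 2 was the higher, by 3.92-fold and 2.14-fold, and within each replicate number wild-type was the higher, by 1.64-fold and 2.99-fold. Its log2 genotype difference was -1.15 ± 0.90 (SE; -3.72 to 1.42; limma adjusted p = 0.866), but -0.16 without wild-type replicate 2, -2.13 without wild-type replicate 1 and -0.35 with median centring. Probe set 1419942_at read 27.7 and 450.2 in wild-type and 17.3 and 213 in Pac1-/- cells, which put replicate 2 at 16.3-fold and 12.3-fold above replicate 1. Probe set 1425351_at read 66.7 and 934 in wild-type and 27.9 and 80.1 in Pac1-/- cells, so only wild-type replicate 2 was above 100. Its log2 difference was -2.40 ± 1.54 (-6.83 to 2.02; adjusted p = 0.866). The pair of replicate 1 arrays gave -1.26 and the replicate 2 pair -3.54. Without wild-type replicate 2 the difference was -0.50, which sets wild-type replicate 1 against both Pac1-/- arrays.

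The fourth Srxn1 probe set did not follow. Probe set 1426875_s_at read 2119 and 2076 in wild-type and 2595 and 1376 in Pac1-/- cells, with wild-type nearly level and Pac1-/- replicate 2 lowest. The log2 difference was -0.15 ± 0.48 (SE; -1.52 to 1.22; limma adjusted p = 0.976), and it was 0.048 on the values as deposited and 0.67 with median centring. All 4 Srxn1 probe sets had a negative fitted difference after quantile normalisation, but none passed the unadjusted test.

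Heme oxygenase 1, which breaks down heme and is a widely used readout of NRF2 activity, had the widest gap between the cultures of a genotype among the tested antioxidant probe sets. Hmox1 read 30.5 in wild-type and 37.1 in Pac1-/- replicate 1, against 527 in wild-type and 209.9 in Pac1-/- replicate 2. Replicate 2 was thus 17.3-fold higher in wild-type and 5.66-fold higher in Pac1-/- cells. The order of the genotypes turned with the replicate number: Pac1-/- was 1.21-fold above wild-type on the replicate 1 arrays, and wild-type was 2.51-fold above Pac1-/- on the replicate 2 arrays. The fitted log2 difference of -0.52 ± 1.80 (SE; -5.68 to 4.63; limma adjusted p = 0.979) therefore says little about Hmox1 in either direction.

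Nqo1, the quinone reductase that is another classic NRF2 target, lay closer together across the arrays. It read 113 and 203 in wild-type and 127 and 138 in Pac1-/- cells, with wild-type replicate 2 highest. Replicate 2 was 1.80-fold above replicate 1 in wild-type and 1.09-fold in Pac1-/- cells. The log2 genotype difference was -0.19 ± 0.46 (SE; -1.52 to 1.13; limma adjusted p = 0.961; 0.25 with median centring).

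The superoxide dismutases convert superoxide to hydrogen peroxide, Sod1 mainly in the cytosol and Sod2 in mitochondria. For Sod1, 1451124_at read 2170.2 and 3016 in wild-type and 2359 and 1932 in Pac1-/- cells, and the dim 1435304_at read 105 and 128 in wild-type and 109.7 and 126 in Pac1-/- cells. No Sod1 array departed from another by more than a factor of 1.56 within a replicate number. The log2 differences were -0.26 ± 0.40 (SE; -1.40 to 0.88; limma adjusted p = 0.915; 0.56 with median centring) and 0.02 ± 0.36 (-1.02 to 1.06; adjusted p = 0.996; -0.21 as deposited). Sod2 is also a known NF-kappaB target. Its probe set 1448610_a_at read 623 and 579.8 in wild-type and 548 and 949.7 in Pac1-/- cells, and 1417193_at read 429 and 446 against 431 and 639. In both, Pac1-/- replicate 2 was the highest array and the other three were close together. The log2 differences were 0.26 ± 0.45 (-1.03 to 1.55; adjusted p = 0.929) and 0.26 ± 0.40 (-0.88 to 1.41; adjusted p = 0.916), and without Pac1-/- replicate 2 they were -0.13 and -0.022. The third Sod2 probe set, 1417194_at, was dim at 86.6 and 27.1 in wild-type and 43.4 and 26.8 in Pac1-/- cells and was not tested.

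Across the genes, the comparison of genotypes gave no adjusted call. Of the 16 tested antioxidant probe sets, 0 passed limma's adjusted p (lowest 0.866, highest 0.996), as in the whole table, where the share was 0%. At an unadjusted p under 0.05 there was 1 of 16, the first Gsr probe set, against 3.38% of all tested probe sets. Both Pac1-/- arrays were below both wild-type arrays in 2 of 16, Gsr and Txnrd1, beside 13.4% of all, and above them in 1, the second Gsr probe set, beside 24.3%. These counts are of 1 or 2 probe sets and carry no result about the group. In fitted sign, 5 were higher and 11 lower in Pac1-/- cells, beside 47.1% lower among all tested probe sets. Probe sets of 1 gene are not independent readings: 4 of the 11 belong to Srxn1. Gsr, Gclc and Sod1 each had 1 probe set higher and 1 lower. The median of the 16 was -0.24 (log2), against 0.06 over all tested probe sets. With each array centred on its median the split became 10 higher and 6 lower, with a median of 0.33, while the median of all tested probe sets went to 0.69. The antioxidant median was below that of all on both scales, but above it, at 0.18 against 0.13, without wild-type replicate 2. The probe sets that passed are not all of the genes' probe sets, and those that passed through 1 bright group had to differ. Both Gsr probe sets passed in that way, the first through the wild-type and the second through the Pac1-/- arrays.

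**Figure D2:**
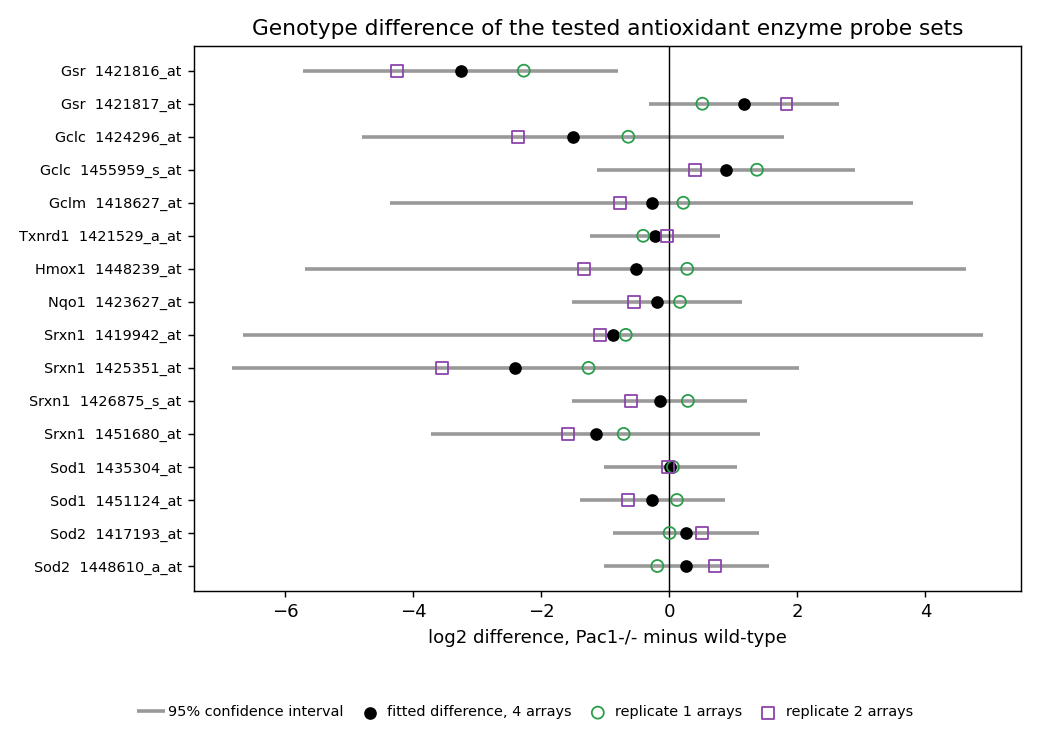
Log2 difference between Pac1-/- and wild-type mast cells for the 16 tested probe sets. Black points are the fitted differences over 4 arrays, grey bars their 95% confidence intervals, green circles the difference between the replicate 1 arrays and purple squares that between the replicate 2 arrays; only the interval of the first Gsr probe set, -5.72 to -0.79, leaves out 0, and that gene's second probe set lies on the other side of 0.

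The pairs of arrays with the same replicate number differed in this respect. Between the replicate 1 arrays, Pac1-/- was the lower for 7 of the 16 probe sets and the higher for 9, at a median of 0.03 (log2). Between the replicate 2 arrays, it was the lower for 12 and the higher for 4, at a median of -0.62; over all tested probe sets the medians were 0.01 and 0.13. The replicate 2 gap was the larger one in size in 13 of 16, beside 63.5% of all tested probe sets. Pac1-/- replicate 2, the array with the low median and the high GAPDH 3' to 5' ratio, is 1 of the arrays in that pair, and its part in these differences was not tested. The 9 probe sets at or above 100 on every array had differences between -1.15 and 0.89 with SEs of 0.36 to 0.90, and the 7 others between -3.26 and 1.18 with SEs of 0.52 to 2.02. Since a probe set that averages 100 or more but reads below it on some array has to vary, that contrast was fixed by the way the probe sets were divided.

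The difference between the replicate numbers was larger than that between the genotypes for several genes. Of the sum of squares over the 16 probe sets, replicate number took 62.7%, genotype 30.2% and the remainder 7.16%, against 71.9%, 17.9% and 10.2% over all tested probe sets. The largest genotype differences, of Gsr 1421816_at (-3.26, log2) and Srxn1 1425351_at (-2.40), weigh most in the genotype share. Both probe sets passed the intensity minimum only through wild-type arrays, so the higher genotype share carries no result about the group. Gclm, Hmox1 and the Srxn1 probe set 1419942_at were over 4-fold higher on replicate 2 in both genotypes, 3 of 16, beside 5.61% of all tested probe sets. This fold was chosen after the values were seen, and each of these 3 passed the intensity minimum only through the replicate 2 arrays. No antioxidant probe set that read at least 100 on all arrays differed that far in both genotypes. The beta-actin control's 3' to 5' ratio was higher on both replicate 1 arrays, at 109 and 293, than on replicate 2, at 1.58 and 54.8 (wild-type named first). That of GAPDH did not separate the replicate numbers. All cell type markers were read through their brightest probe set. Among the 8 mast cell markers, Ms4a2 was the only one higher on both replicate 2 arrays. It read 143 and 41.9 on replicate 1 and 3261 and 1502 on replicate 2, which is 22.9-fold and 35.9-fold higher. Cpa3, Hdc and Srgn were lower on both replicate 2 arrays, and Kit, Fcer1a, Cma1 and Tpsb2 overlapped. The summed intensity of the 8 markers was 50877 and 53913 on replicate 1 and 44408 and 42074 on replicate 2. The summed intensity of 6 macrophage markers was 7953 and 6081 on replicate 1 and 551 and 586 on replicate 2. The gap was in Cd68, a lysosomal glycoprotein that is not restricted to macrophages, at 7512 and 5638 on replicate 1 and 118 and 121 on replicate 2, while Adgre1 lay between 217 and 250.5 on all 4 arrays. The summed markers of neutrophils, basophils and eosinophils, lymphocytes and erythroid cells stayed between 48.0 and 389, and none of them averaged 100 or more. In bulk cultures a change in cell mixture and a change in RNA per cell cannot be told apart, and the part of these factors in the replicate difference was not tested.

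**Figure D3:**
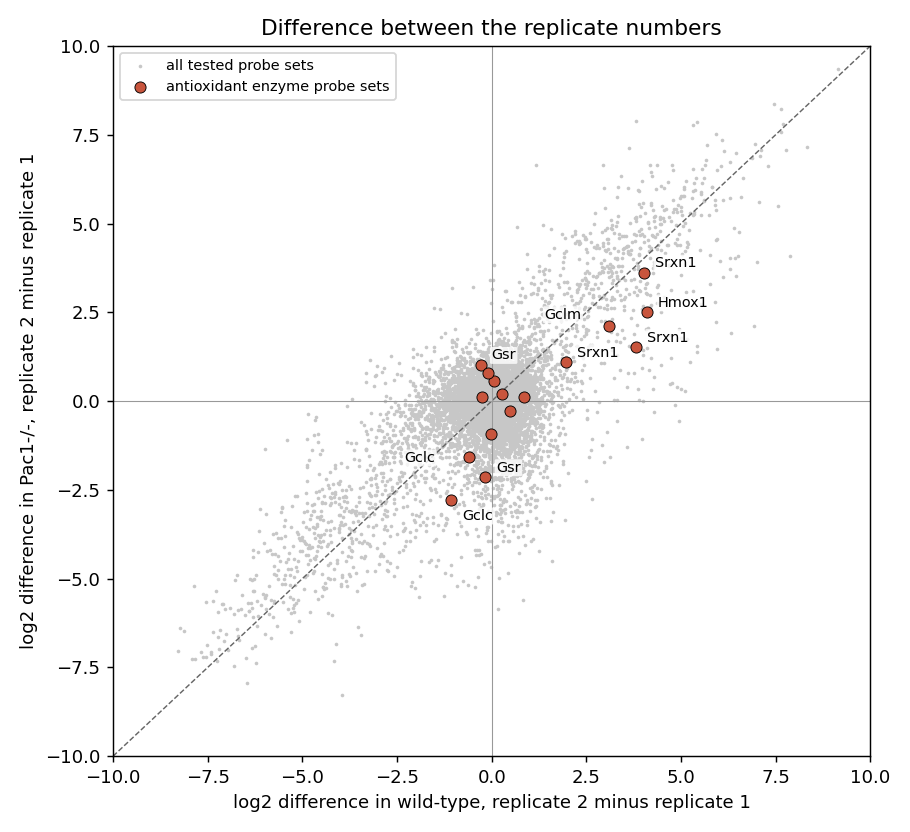
Difference between the replicate numbers in wild-type (horizontal axis) and Pac1-/- mast cells (vertical axis), both as log2 replicate 2 minus replicate 1, for all 7770 tested probe sets (grey) and the 16 antioxidant ones (red, those beyond 1 log2 unit on either axis labelled). Gclm, Hmox1 and 3 Srxn1 probe sets lie at the upper right, below the dashed line of equality, so that the gap was wider in wild-type cells.

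Gclm and Srxn1 are shown with their promoters, a choice made after their values were seen. Gclm and the Srxn1 probe sets other than 1426875_s_at were higher on the replicate 2 arrays. Windows from 250 bases before to 50 after the start site, from RefSeq (GRCm38.p6), were found for 7 of the 10 genes, in 9 windows; Gsr, Gclc and Hmox1 had none. They were searched on both strands for the core of the antioxidant response element, TGACNNNGC, and for the AP-1 site TGANTCA, which can lie inside an extended element. The core was in 12.4% of 32851 windows of this length and the AP-1 site in 7.81%. The 250 bases before each start site are printed 5′ to 3′ on the plus strand, on which both genes lie, with matches in capitals. They span chr2:152105274-152105523 for Srxn1 and chr3:122245307-122245556 for Gclm.
Srxn1: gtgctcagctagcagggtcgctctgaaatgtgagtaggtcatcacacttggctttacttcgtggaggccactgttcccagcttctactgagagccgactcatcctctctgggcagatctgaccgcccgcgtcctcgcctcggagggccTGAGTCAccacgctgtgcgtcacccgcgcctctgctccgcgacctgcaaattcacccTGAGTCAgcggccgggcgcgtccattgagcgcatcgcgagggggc
Gclm: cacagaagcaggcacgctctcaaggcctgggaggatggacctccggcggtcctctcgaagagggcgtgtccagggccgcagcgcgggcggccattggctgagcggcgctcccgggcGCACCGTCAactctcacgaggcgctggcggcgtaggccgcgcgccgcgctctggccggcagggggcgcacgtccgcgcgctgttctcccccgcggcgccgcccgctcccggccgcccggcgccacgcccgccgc

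Srxn1 has 2 AP-1 matches, which begin 102 and 45 bases before the start site, and a core match 28 bases after it, outside the printed stretch. Gclm has 1 core match on the minus strand, whose plus-strand letters begin 134 bases before the start site, and no AP-1 match. Among the others, the core was found once each in the windows of Sod1, Prdx1 and 1 of the 3 Txnrd1 windows, and 2 AP-1 matches were in that of Prdx1. The windows of Nqo1 and Sod2 held neither. A match describes the letters only. Whether a match bears on the readings was not tested, and sequence outside the windows was not searched.

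The wider pathway was described with 7 lists of 66 other genes, of which 58 have a probe set with 1 symbol and 41 were tested, each through its brightest probe set. None of the 41 passed limma's adjusted test, and 0 were at an unadjusted p under 0.05, beside 3.38% of all tested probe sets. There were 15 higher and 26 lower in Pac1-/- cells, beside 47.1% lower among all tested probe sets. Both Pac1-/- arrays were below wild-type for 11 (beside 13.4% of all) and above for 4 (beside 24.3%). The medians of 6 lists were below 0, but with median centring 6 were above 0 and only 2 exceeded the median of all tested probe sets. The NADPH oxidase list (below 0) and the glutathione transferases (above 0) kept their side of 0 on deposited values and with median centring, while the direction of the other 5 depends on the scaling.

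Among glutathione synthesis genes, peroxidases and glutaredoxins, 1 of 6 tested genes was higher and 5 lower, with a median log2 difference of -0.20 (-0.48 when a gene's probe sets were averaged). Slc7a11, the cystine transporter that feeds glutathione synthesis, read 485.5 and 169 in wild-type and 145 and 149 in Pac1-/- cells, a difference of -0.96 ± 0.65 (SE). The mitochondrial glutaredoxin Glrx2 was at 0.73 ± 0.51 and the glutathione peroxidase Gpx1, at 4399 and 5086 in wild-type and 3900.1 and 3733 in Pac1-/- cells, at -0.31 ± 0.35. The glutathione transferases, which conjugate glutathione to electrophiles, had 4 of 5 higher and a median of 0.61 (0.28 when a gene's probe sets were averaged, 0.38 on deposited values), with Gstk1 at 0.61 ± 0.45, Mgst2 at 1.05 ± 0.89 and Gstp1 at 0.28 ± 0.38.

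Thioredoxins and peroxiredoxins had 7 of 8 tested genes lower and 1 higher, with a median of -0.55 (0.28 with median centring). Msrb1, a selenoprotein that repairs oxidised methionine, read 125 and 133 in wild-type and 80.6 and 82.9 in Pac1-/- cells, at -0.66 ± 0.34 (log2, SE). Its spread within a genotype was narrow, with SDs of 0.06 and 0.03 (n = 2), while the SE is moderated by limma towards that of all probe sets. The cytosolic peroxiredoxin Prdx2 read 542 and 658 in wild-type and 344 and 414 in Pac1-/- cells, at -0.66 ± 0.37, and the pairs of arrays gave -0.66 and -0.67. Mitochondrial thioredoxin Txn2 was at -0.63 ± 0.39. These 3 genes read lower in Pac1-/- cells in both pairs of arrays but did not pass the unadjusted test. They were named for the lowest p in their list, which favours agreement of the pairs. Of all 7770 tested probe sets, 4764 had the same sign in both pairs. In this list Msrb1 and Prdx2 did pass the unadjusted test with no intensity minimum, at a limma adjusted p of 0.323 and 0.618. So did 1762 of all 22626 probe sets in that setting, where the SE of Msrb1 was 0.05.

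In the list for superoxide, hydrogen peroxide, heme and iron, 2 of 5 were higher and 3 lower (median -0.28; 0.04 when a gene's probe sets were averaged). Ccs, the copper chaperone that loads Sod1, read 221 and 199.9 in wild-type and 132 and 85.9 in Pac1-/- cells, at -0.98 ± 0.41 (SE). The ferritin heavy chain Fth1 was at -0.30 ± 0.37 and catalase, Cat, at 0.61 ± 0.81. NADPH supply was split at 3 higher and 3 lower (median -0.08; 0.08 on deposited values, -0.38 with averaged probe sets), with the mitochondrial isocitrate dehydrogenase Idh2 at -1.41 ± 0.51, malic enzyme Me1 at -0.55 ± 0.42 and Idh1 at 0.39 ± 0.42. For Idh2 the readings were 377 and 186 in wild-type and 93.2 and 106.8 in Pac1-/- cells, without overlap. Both Pac1-/- arrays were below both wild-type arrays in 13.4% of all tested probe sets.

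The regulators had 3 of 7 higher and 4 lower (median -0.02). Nfe2l2, which encodes NRF2, read 567 and 533 in wild-type and 711 and 1113 in Pac1-/- cells, at 0.70 ± 0.42 (SE), and Bach1, a repressor that competes for the same DNA elements, was at 0.59 ± 0.45. Both had their Pac1-/- arrays above the wild-type ones, 2 of 7 beside 24.3% of all tested probe sets, and both were named for a low p in their list. The related factor Nfe2l1 was at -0.95 ± 0.55. In the NADPH oxidase list, whose enzyme produces superoxide, 3 of 4 were lower (median -1.36; -0.81 with median centring). Its organiser subunit Ncf1 read 511 and 206 in wild-type and 161 and 69.0 in Pac1-/- cells, at -1.62 ± 0.74. The GTPase gene Rac2 was at -1.86 ± 1.13 and the membrane subunit Cyba at -1.10 ± 2.99.

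**Figure D4:**
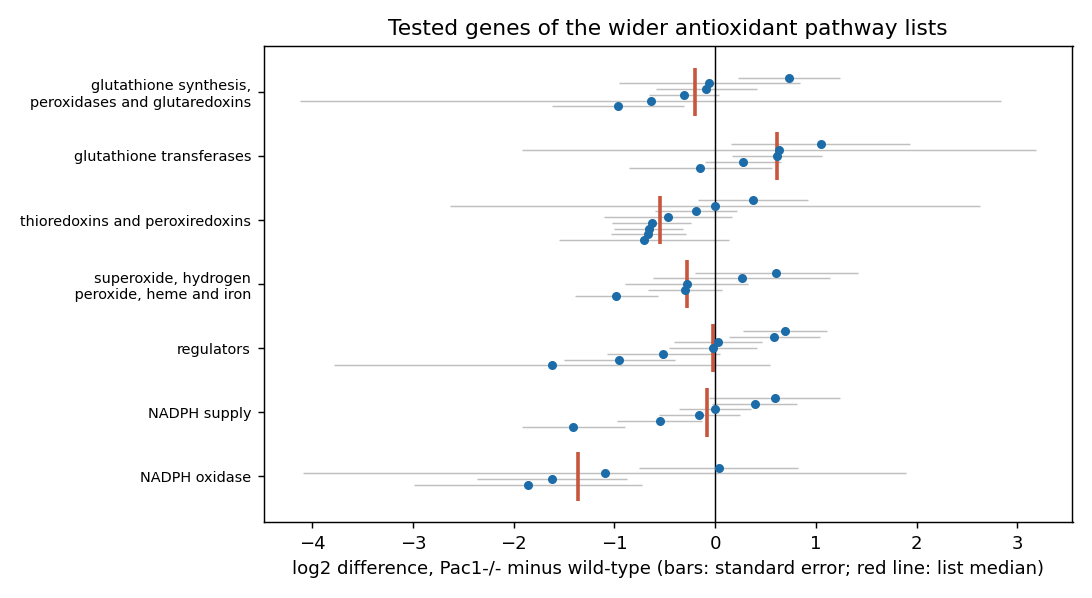
Log2 difference between Pac1-/- and wild-type cells for the 41 tested genes of 7 antioxidant pathway lists, 1 point per gene with its standard error and a red line at each list's median. Medians run from -1.36 for the NADPH oxidase to 0.61 for the glutathione transferases, and no gene passed the test at an unadjusted p under 0.05.

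Over 4-fold differences between the replicate numbers were present in this wider set too, in the same direction in both genotypes. Of the 41 tested genes, 3 were that far higher on replicate 2 and 2 that far lower. Of all 7770 tested probe sets, 436 were higher and 457 lower by the same rule. Counts this small carry no result about the lists. Higher on replicate 2 were 3 genes, named after their values were seen: thioredoxin itself, Txn1, at 87.6 and 65.4 on replicate 1 and 2111 and 2802 on replicate 2 (wild-type named first), the autophagy receptor and NRF2 target Sqstm1 at 334 and 115 against 6118 and 1882, and Cyba at 18.5 and 14.2 against 1723 and 437. Lower on replicate 2 were Gpx7, at 3703 and 945 against 13.9 and 25.8, and Gstm1, at 875 and 671 against 3.08 and 50.2. Txn1, Sqstm1, Cyba and Gpx7 have 1 tested probe set each, while for Gstm1 only 1 of 3 differed that far. Against these gaps the genotype differences were small, at -0.01 ± 2.63 for Txn1 (log2, SE) and -1.62 ± 2.16 for Sqstm1.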

How the data were processed

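Total RNA of 4 cultures (2 wild-type, 2 Pac1-/-) was amplified from oligo-dT primed cDNA and hybridised, 1 array per culture. The authors deposited linear intensity values scaled to a trimmed mean of about 150.1 per array (the submitters' processing notes name MAS5); the RMA values named in the design text were not used here. From 22690 probe sets 64 controls were removed. The arrays were quantile normalised, floored at 16 and log2 transformed. Probe sets with a mean of at least 100 were fitted with limma 3.58.1 in R 4.3.3 (lmFit and eBayes with genotype alone; two-sided; adjusted threshold 0.05 after Benjamini and Hochberg), leaving 2 degrees of freedom plus 1.71 from the prior. With 2 arrays a side, exact permutation can reach no p below 0.333, so it was not used. Annotation gave 20380 probe sets 1 symbol, 691 several and 1555 none.

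Genes, lists and tests were chosen with earlier results of these data known. All probe sets of the listed genes were reported, with up to 3 tested genes of lowest p per pathway list; others are named as chosen after their values were seen. Alternatives were deposited values, median centring, no minimum or 200, a floor of 64, the replicate number as a block, each array left out, and averaged probe sets. Per the design text cultures were independent, but 2 per genotype and their shared numbers limit what p-values measure. Figures used matplotlib 3.10.9 under Python 3.11.15.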

Additional observations from a re-analysis of the deposited data

How the results depend on the processing

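No antioxidant probe set passed the adjusted test under any alternative, and neither did any other probe set. At an unadjusted p under 0.05 the 263 probe sets of the whole table became 1762 with no intensity minimum, 110 with a minimum of 200 and 899 with the replicate block, and ranged from 79 to 408 with an array left out (79 and 86 when replicate 2 of wild-type or of Pac1-/- was left out, 408 when it was Pac1-/- replicate 1). The count of 1 among the antioxidant probe sets became 0 with a minimum of 200, which removes Gsr from the test, and 0 to 3 with an array left out (0 when it was wild-type replicate 2, 3 when it was Pac1-/- replicate 1). With no minimum the 1 was a Txnrd1 probe set, not Gsr. With the replicate block in limma it was 3: Gsr 1421816_at, Srxn1 1425351_at and Gclc 1424296_at, all lower in Pac1-/- cells, at adjusted p of 0.377, 0.377 and 0.398. The labels do not say that the numbers pair the cultures; deviations from the genotype means correlated at 0.751 between arrays of 1 number.

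The median log2 difference of the antioxidant probe sets went from -0.24 to 0.33 with median centring, and lay between -0.56 and 0.18 with an array left out. Signs turned for Srxn1 1426875_s_at (0.048) and Sod1 1435304_at (-0.21) on deposited values. With median centring they turned for Gclm (0.23), Txnrd1 1421529_a_at (0.52), Nqo1 (0.25), Srxn1 1426875_s_at (0.67) and Sod1 1451124_at (0.56). With an array left out, differences ranged from -1.83 to 1.28 for Gclm, -2.58 to 1.53 for Hmox1, -0.62 to 0.23 for Nqo1, -2.89 to 1.13 for Srxn1 1419942_at, -0.61 to 0.31 for Srxn1 1426875_s_at, -0.12 to 0.16 for Sod1 1435304_at, -0.022 to 0.55 for Sod2 1417193_at and -0.13 to 0.66 for Sod2 1448610_a_at. Leaving out an array sets 1 replicate number against both, so the replicate difference enters there, and the single array left is taken to vary as the other genotype does. Other causes were not tested. Dim probe sets near the floor of 16 have no exact size.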
